A study of Mus musculus with 10 samples.

Results

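Kruppel-like factors (KLFs) are transcription factors that bind DNA through a C-terminal zinc-finger domain. The values described here are those of 10 KLF genes other than Klf1, namely Klf2, Klf3, Klf4, Klf6, Klf7, Klf9, Klf10, Klf11, Klf12 and Klf13, in long-term hematopoietic stem cells (LT-HSCs) sorted from mouse fetal liver at E14.5. The genes were chosen by name, and they are 10 of the 17404 genes in the deposited count table. The KO group holds 6 libraries from Tnfrsf11aCre; Spi1f/f embryos and the WT group 4 libraries from Tnfrsf11a+/+; Spi1f/f embryos, at the same age. Both groups carry loxP-flanked alleles of Spi1, the gene of the macrophage and myeloid factor PU.1, and the groups differ by Cre expressed from the Tnfrsf11a locus, which is active in the precursors of macrophages. The model removes fetal macrophages, so the comparison asks how these genes are expressed in LT-HSCs of a liver with few macrophages. Whether a Tnfrsf11aCre embryo also differed through the changed Tnfrsf11a allele itself was not tested. All 10 genes had at least 11 counts in every library, and all 10 passed the filter on low counts.

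KLF proteins recognize CACCC and related GC-rich boxes and share their zinc fingers with the SP proteins, while their N-terminal parts differ and decide which cofactors they recruit. KLF2, KLF4, KLF6 and KLF7 act largely as activators, KLF3 and KLF12 bind the corepressor CtBP, and KLF9, KLF10, KLF11 and KLF13 bind the SIN3 corepressor complex. In blood cells KLF2 maintains lymphocyte quiescence, KLF4 acts in monocyte differentiation, KLF3 is induced by KLF1 in erythroid cells and KLF10 is an early gene of TGF-beta signaling.

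4 short sequences are shown because the results below refer to them. The first pair shows a place where the transcripts Klf3-201 and Klf3-203 of Klf3 part. They also differ at the 5' end, where Klf3-203 starts at chr5:64815850 with an exon of 981 bases and Klf3-201 starts at chr5:64803388. Both transcripts hold the exon that ends at chr5:64823029 on the plus strand (GRCm38), printed in lower case from position 64823000. Klf3-203 keeps the intron sequence that follows, printed in capitals up to position 64823059, and ends within that intron at position 64825429. In Klf3-201 the exon is spliced to the next coding exon, printed for chr5:64827110-64827139.
Klf3-203: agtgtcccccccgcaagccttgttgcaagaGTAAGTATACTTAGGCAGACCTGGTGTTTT
Klf3-201: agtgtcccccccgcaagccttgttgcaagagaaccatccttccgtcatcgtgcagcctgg
The second pair lies upstream of Klf2 and Klf3 and ends at the base before each gene's first annotated base (RefSeq sequence, GRCm38.p6, plus strand). Capitals mark CACCC on either strand and, for Klf2, the MEF2 motif CTAAATTT on either strand, which overlaps its own reverse complement here. The Klf2 sequence spans chr8:72318812-72319032 and the Klf3 sequence chr5:64803271-64803387.
Klf2: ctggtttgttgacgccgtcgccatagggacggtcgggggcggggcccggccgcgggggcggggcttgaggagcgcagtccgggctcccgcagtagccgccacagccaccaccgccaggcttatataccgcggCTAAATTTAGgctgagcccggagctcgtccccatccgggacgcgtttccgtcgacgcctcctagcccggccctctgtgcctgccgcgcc
Klf3: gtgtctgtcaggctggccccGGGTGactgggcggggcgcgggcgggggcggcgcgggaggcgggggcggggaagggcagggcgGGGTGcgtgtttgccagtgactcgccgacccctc
Promoter entries were at hand for 9 of the 10 genes. In the 250 bases before the RefSeq start, Klf3 held 5 matches to CACCC and Klf7 held 3, while Klf4, Klf6 and Klf11 held none, and 52.0% of 32851 mouse promoters held at least 1. The RefSeq start of Klf3 lies inside the first exon of Klf3-201, and 2 of its 5 matches lie in the sequence printed above. CTAAATTT stood in the Klf2 window and in 0.718% of all promoters. GGGCGG, a GC box, matched 6 times in Klf3, 4 times each in Klf4 and Klf11, and in 32.7% of all promoters.

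The libraries held between 5315435 and 30941726 counts. Spi1 itself ranged from 9.10 to 101 CPM (counts scaled to the size of each library) in KO and from 6.22 to 50.1 CPM in WT, with a median of 65.6 CPM in KO and 20.7 CPM in WT, a log2 fold change of 1.31 (SE 0.69; edgeR quasi-likelihood test, Benjamini-Hochberg adjusted p = 0.337). The groups overlapped, and the deleted gene was not lower in the KO libraries, so its level in LT-HSCs does not check the labels. The stem cell genes Kit, Slamf1, Procr, Hlf, Mecom, Ptprc, Ly6a, Cd34, Meis1 and Hoxa9 were all detected. Of these 10, 4 rose in KO by edgeR, Hlf, Mecom, Cd34 and Hoxa9, where 1.32% of all genes did. DESeq2 tested against a minimum log2 fold change of 0.1 called 7 higher, adding Procr, Ptprc and Meis1, where it called 3.5% of all genes higher. The log2 fold change was positive for 9 of the 10, with a median of 1.39 beside 0.06 over all genes tested. Their summed TPM (a level per transcript length, scaled within each library) ran from 271 to 709 in KO and from 89.8 to 322 in WT. Transcripts of other cell types were present too: summed TPM of 10 erythroblast markers ran from 5902 to 206895 in KO and from 2403 to 360647 in WT, and those of 12 endothelial markers from 1025 to 5052 in KO and from 325 to 2989 in WT. Macrophage markers summed to 63.8 to 231 TPM in KO and 18.5 to 202 TPM in WT. Of those 11 genes 1, Marco, fell by edgeR, with no count in any KO library. The log2 fold change was negative for 8 of the 11, with a median of -1.17. Summed granulocyte markers reached 1947 TPM in KO and 1294 TPM in WT, megakaryocyte markers 3234 and 1111 TPM, and hepatoblast markers 3919 and 1849 TPM, while lymphoid markers stayed below 5 TPM in both groups, with 3 of 7 at 0 throughout. None of the tested genes of those last 4 lists, or of the endothelial and erythroblast lists, was called by edgeR, and of all these DESeq2 tested against a minimum log2 fold change of 0.1 called 1, the erythroblast gene Rhag, lower in KO. Some lists still leaned in sign. All 6 tested erythroblast genes were negative (median -1.54), and all 6 megakaryocyte (1.06) and all 7 hepatoblast genes (0.76) were positive. Of the endothelial genes, 10 of 12 were positive (0.28), and of the granulocyte genes 6 of 9 (0.43). In bulk libraries fewer cells of a type and less RNA per cell cannot be told apart, and the part of other cell types in the KLF values was not tested. The labels number the libraries but do not tie them to litters, so each p-value measures the spread between these libraries.

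None of the 10 KLF genes passed the threshold between KO and WT (edgeR quasi-likelihood test, Benjamini-Hochberg adjusted p below 0.1), where 3.99% of 16725 tested genes did, 1.32% higher and 2.67% lower in KO. Unadjusted p was below 0.05 for 2 of the 10, Klf12 and Klf6, both with higher values in KO, and for 3139 of all genes. By DESeq2 with the log2 fold-change threshold of 0.1 that the study used, Klf12 was called higher in KO, as were 3.5% of all genes, with another 3.29% lower. The count over all genes rested on single libraries: 667 genes were called with all libraries, and 0 or 1 without KO replicate 15405, 15406, 15411, 15412 or 15415 or WT replicate 15416. The log2 fold change was positive for 6 of the 10 genes and negative for 4, with a median of 0.10 beside 0.06 over all genes tested. Klf12 was also the gene for which every KO library lay above every WT library in CPM, as for 2.88% of all genes, and no member lay lower in every KO library, against 3.48% of all genes.

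**Figure D1:**
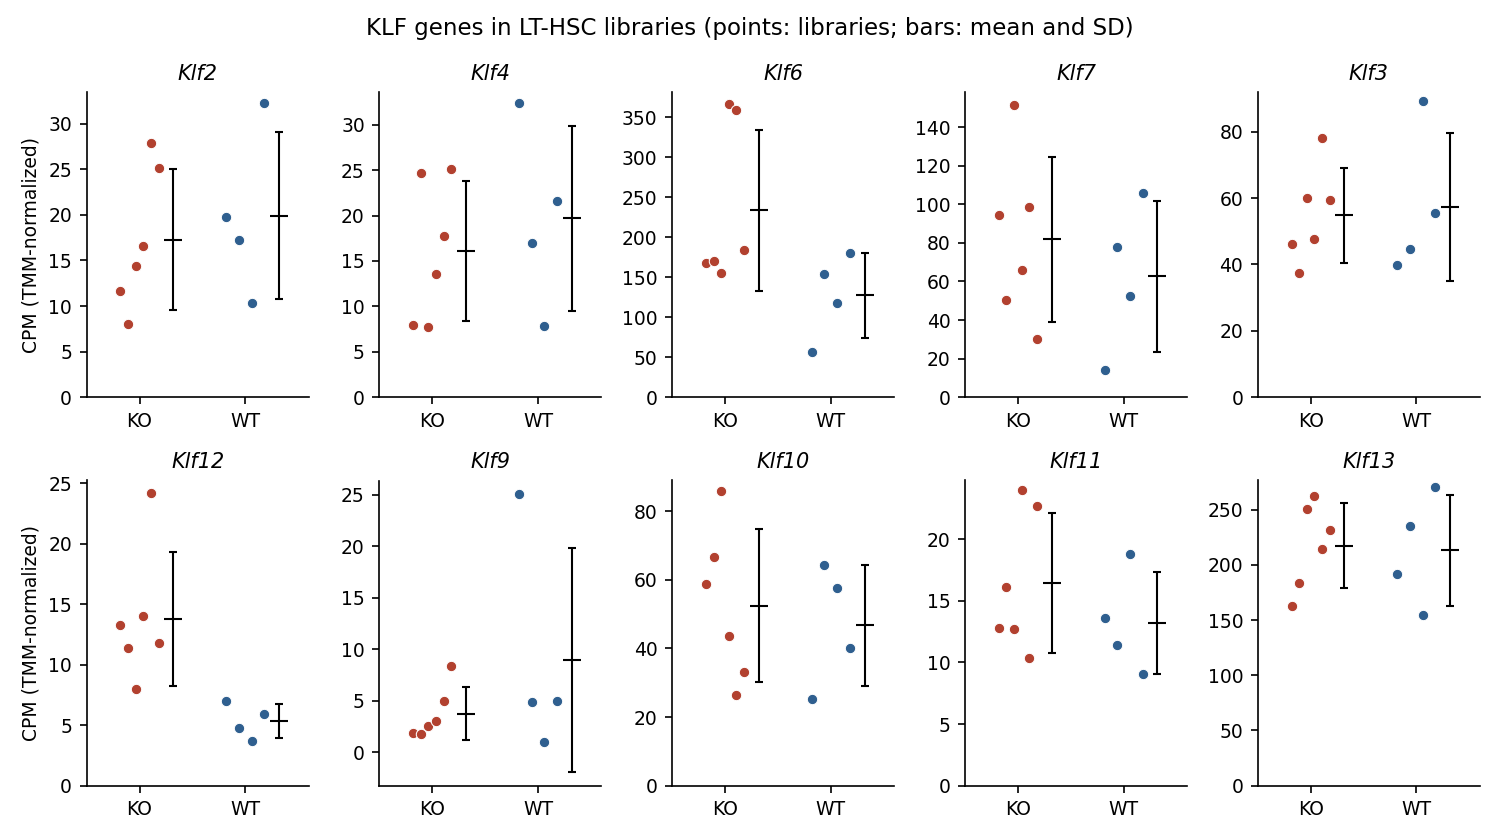
CPM of the 10 KLF genes in each of the 6 KO and 4 WT libraries, with a vertical axis for each gene, and the group mean and SD beside the points. The groups are apart for Klf12 alone, and the single high WT point of Klf9 is 25.0 CPM.

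**Figure D2:**
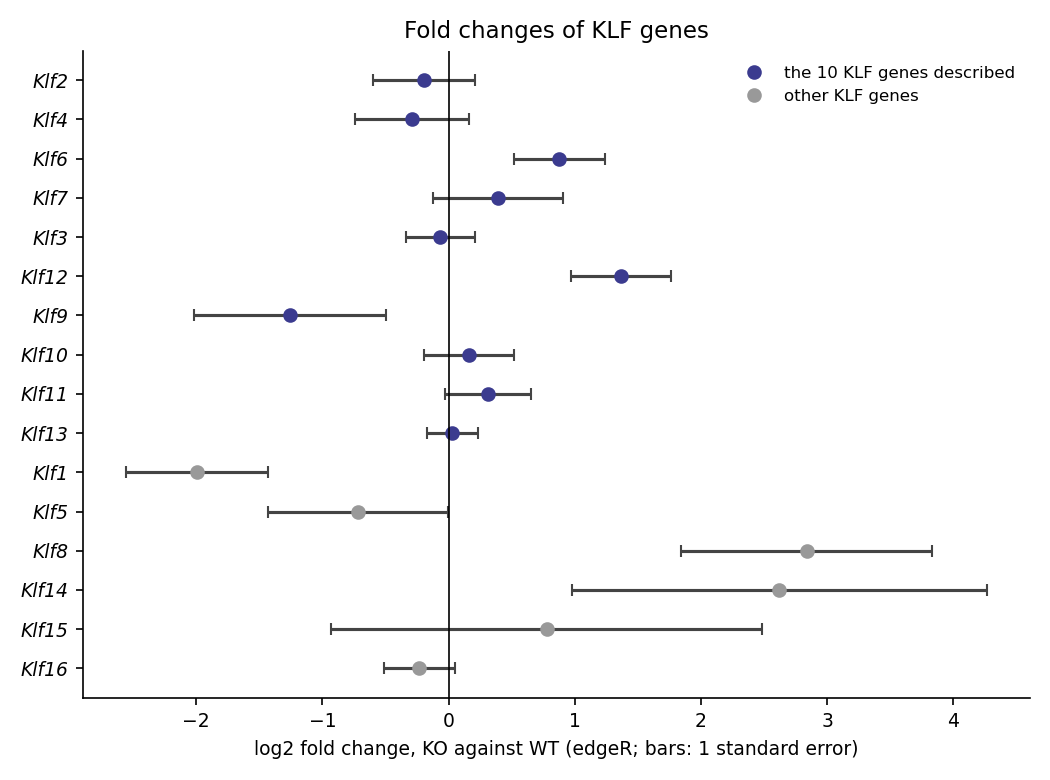
log2 fold change of KO against WT, with 1 standard error, for the 10 KLF genes and for 6 other KLF genes. Klf12 at 1.37 and Klf6 at 0.88 are the highest of the 10 and Klf9 at -1.26 the lowest.

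The KLF genes spanned a wide range of levels in these cells. Per transcript length, Klf6 came first with a mean of 89.1 ± 49.8 TPM (SD, n = 10), followed by Klf13 with 33.7 ± 9.77 TPM. Klf6 stood above Klf13 in 9 of the 10 libraries. These levels sum all transcripts of a gene, and the order differed for the main coding transcripts. Klf6-201 and Klf13-201 had means of 45.1 and 36.8 TPM in KO and of 17.2 and 27.4 TPM in WT. Klf10 with 20.2 ± 8.62 TPM, Klf7 with 20.1 ± 12.4 TPM and Klf3 with 16.4 ± 3.30 TPM followed, and their order was not fixed, since Klf10 exceeded Klf7 in 2 KO and 3 WT libraries and Klf7 exceeded Klf3 in 4 KO libraries and 1 WT library. By genotype the means stood in opposite orders, with Klf7 at 24.6, Klf10 at 23.1 and Klf3 at 16.1 TPM in KO and Klf3 at 16.8, Klf10 at 15.97 and Klf7 at 13.4 TPM in WT. Klf12 with 10.5 ± 5.59 TPM and Klf2 with 9.62 ± 3.47 TPM likewise changed places: Klf12 was above Klf2 in 5 of 6 KO libraries and in 0 of 4 WT libraries. Most of the Klf12 level lay on a transcript without a coding sequence, Klf12-203, described below. Its coding transcript Klf12-205 reached at most 1.18 TPM in KO and 0.41 TPM in WT, below the lowest Klf2 values of 5.65 and 3.50 TPM. Klf4 with 5.65 ± 2.72 TPM and Klf11 with 3.81 ± 1.77 TPM were close as well, Klf4 being higher in 6 libraries. Klf9 was last, with 1.63 ± 1.79 TPM, and lay below Klf11 in 9 libraries.

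Over all its transcripts, Klf6 alone made up 33.1% to 56.9% of the 10 genes' summed TPM in KO and 23.8% to 37.5% in WT. Together Klf6 and Klf13 made up 50.6% to 71.1% in KO and 47.6% to 55.2% in WT. The sum itself ran from 184 to 355 TPM in KO and from 106 to 194 TPM in WT. TPM was shifted between the genotypes for genes in general, with a median log2 ratio of 0.47 in favor of KO over 15625 genes, so fold changes and tests are taken from counts, and a difference between KO and WT that is given in TPM carries this shift.

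**Figure D3:**
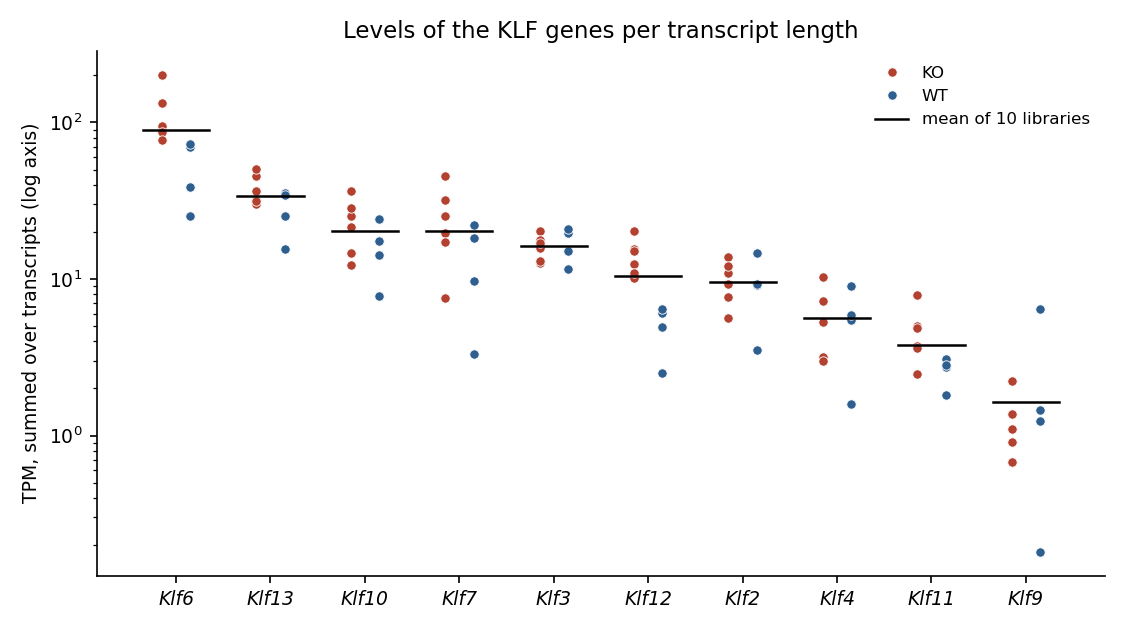
TPM of each KLF gene, summed over its transcripts, on a log axis, with KO and WT libraries as points and the mean of the 10 libraries as a line. Genes are ordered by that mean, from Klf6 at 89.1 TPM to Klf9 at 1.63 TPM, and the points of neighbors overlap.

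Among the activators, Klf6, a widely expressed gene that is induced by injury and growth signals, had the largest difference. Its values ran from 155 to 366 CPM in KO, with a median of 177, and were 56.8, 154, 118 and 180 CPM in WT. 3 KO libraries lay above the highest WT library, 2 of them near 360 CPM, and the other 3 fell within the WT range. The log2 fold change was 0.88 (SE 0.36; edgeR quasi-likelihood test, Benjamini-Hochberg adjusted p = 0.212). Over the alternative settings it stayed between 0.54 and 1.09, with no adjusted p under 0.124. In TPM the groups did not overlap, with 77.5 TPM the lowest KO and 72.6 TPM the highest WT value, on the scale that was shifted for genes in general.

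3 transcripts shared the reads of Klf6 (chr13:5861482-5870394). The full-length coding transcript Klf6-201 held 39.1% ± 4.51 of the gene's TPM in KO (SD, n = 6) and 32.2% ± 4.29 in WT (SD, n = 4). Klf6-202, annotated as a retained intron, held 31.3% and 27.8%, and Klf6-203, annotated as a target of nonsense-mediated decay, 29.6% and 40.0%. By estimated counts, which do not divide by length, Klf6-201 held 75.0% in KO and 68.2% in WT. Klf6-201 ran from 27.4 to 75.8 TPM in KO and was 7.43, 25.9, 10.8 and 24.6 TPM in WT, so the groups were apart by a narrow margin in TPM. In CPM of the estimated counts they overlapped, with 102.7 the lowest KO and 103.9 the highest WT value. Its log2 fold change was 1.04 (SE 0.38), that of Klf6-202 was 1.007 (SE 0.49) and that of Klf6-203 was 0.26 (SE 0.37). None passed the test over all 70054 transcripts (edgeR quasi-likelihood test, Benjamini-Hochberg adjusted p between 0.320 and 0.823), where 0.00143% did.

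Klf2, the KLF of shear stress and lymphocyte quiescence, did not differ beyond its spread. It ranged from 8.06 to 27.9 CPM in KO, with a median of 15.5, and was 19.8, 17.2, 10.4 and 32.3 CPM in WT. For Klf2 the log2 fold change was -0.20, with an interval of 2 SE from -1.004 to 0.61, and it was 0.14 without WT replicate 15420, the highest WT library. All of its estimated counts lay on 1 transcript, Klf2-201.

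Klf4, a pluripotency and monocyte factor, showed the same picture. Its values ran from 7.74 to 25.1 CPM in KO, with a median of 15.6, and were 32.4, 16.9, 7.84 and 21.7 CPM in WT. Both genotypes thus held libraries near 8 CPM and libraries above 20 CPM. Its log2 fold change was -0.29, with an interval of 2 SE from -1.19 to 0.61, and 0.059 without WT replicate 15416.

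Klf7, known for its part in neuronal and adipocyte differentiation, was the most variable of the activators. It ran from 30.4 to 151 CPM in KO, with a median of 80.3, and was 14.0, 78.1, 52.6 and 106 CPM in WT. At 0.39, its log2 fold change was smaller than its SE of 0.52 (edgeR quasi-likelihood test, Benjamini-Hochberg adjusted p = 0.738). The libraries lowest in Klf7, KO replicate 15415 and WT replicate 15416, were also the lowest of their genotypes in summed endothelial markers, at 1025 and 325 TPM. KO replicate 15409, the highest in Klf7, held the highest endothelial sum of all libraries, 5052 TPM. Other libraries did not keep this order. KO replicate 15412 had 98.6 CPM of Klf7 with an endothelial sum of 2232 TPM, and KO replicate 15406 had 50.6 CPM with 2968 TPM. The part of endothelial transcripts in the Klf7 values was not tested. The transcript Klf7-202 overlaps another annotated gene, Gm26649, and 41.2% of its 31-base words occur in transcripts of other genes, so its reads may be split between these.

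Of the pair that binds CtBP, Klf12 (chr14:99870632-100284679, minus strand), a repressor first described at the AP-2alpha gene, gave the clearest difference between KO and WT. Its values were 7.96 to 24.2 CPM in KO, with a median of 12.6, and 6.98, 4.79, 3.70 and 5.94 CPM in WT. All 6 KO libraries lay above all 4 WT libraries, although the lowest KO and the highest WT library lay close together. KO replicate 15412 was the highest, and the other 5 KO libraries lay between 7.96 and 14.0 CPM. The log2 fold change was 1.37 (SE 0.39), and the adjusted p of 0.104 by edgeR (quasi-likelihood test, Benjamini-Hochberg) narrowly missed the threshold of 0.1. The adjusted p was 0.024 by DESeq2 with the fold-change threshold, and over all alternative settings it lay between 0.0076 and 0.316.

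Most of the Klf12 counts lay on 1 short transcript without a coding sequence. Klf12-203, an annotated processed transcript of 832 bases with 2 exons (chr14:100284257-100284528 and chr14:100248609-100249168), held 93.1% ± 4.53 of the gene's TPM in KO (SD, n = 6) and 97.2% ± 3.91 in WT (SD, n = 4). By estimated counts it held 70.3% in KO and 85.3% in WT. It ran from 9.91 to 19.2 TPM in KO and was 4.52, 6.07, 2.43 and 6.42 TPM in WT. Its own log2 fold change was 1.11 (SE 0.46; edgeR quasi-likelihood test over all transcripts, Benjamini-Hochberg adjusted p = 0.331). The adjusted p was 0.034 by DESeq2 without a fold-change threshold, a fit that called 4.97% of all transcripts higher and 1.91% lower in KO.

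The sequence of Klf12-203 is largely not its own. Of its 31-base words, 61.2% occur in transcripts of other genes, and of the 530 words that start in its second exon 464 do, which is 87.5%. 20 other transcripts, of 19 genes, shared at least 50 such words with it, and mean TPM was higher in KO for 19 of these 20, as it was for 73.3% of all tested transcripts on this shifted scale. Among them were Gm48161-201, with 226 TPM in KO and 90.6 TPM in WT, and Gm29562-201, with 263 and 126 TPM. None of the 20 passed edgeR's test over all transcripts. From which locus the shared reads came cannot be told apart in these tables.

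The coding transcripts of Klf12 were low in both groups. Of the 3 in the tables, 1 had no estimated counts in any library, another had at most 7.28 in a KO library and 0 in WT, and Klf12-205 held the rest. Klf12-205, with a coding sequence over 7 of its exons, had 26.0 to 251 estimated counts in KO and 38.0, 0, 9 and 0 in WT, so 2 of the 4 WT libraries held none. In TPM it ran from 0.28 to 1.18 in KO and reached 0.41 in WT replicate 15416, which overlapped the KO range. With Klf12-203 left out of the gene's counts the log2 fold change was 2.22 (SE 1.13; edgeR quasi-likelihood test, Benjamini-Hochberg adjusted p = 0.316). The Klf12 difference was therefore positive for either set of transcripts and passed edgeR's test for neither.

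Klf3 (chr5:64803388-64832901), which KLF1 induces in erythroid cells, did not differ as a gene. It ran from 37.3 to 78.0 CPM in KO, with a median of 53.5, and was 39.7, 44.7, 89.3 and 55.6 CPM in WT. As a whole gene Klf3 had a log2 fold change of -0.07, with an interval of 2 SE from -0.61 to 0.48, and 0.28 without WT replicate 15418, the highest library of all.

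No transcript of Klf3 passed edgeR's test, and the division of the gene among its transcripts was not itself tested. Klf3-203, the intron-retaining form shown above, had 3.83, 2.34, 4.06, 3.64, 3.37 and 4.34 TPM in KO and 0.68, 1.25, 1.05 and 0.40 TPM in WT, without overlap, as was true with KO higher for 4.94% of all tested transcripts. In CPM of the estimated counts the groups touched, with 6.48 the lowest KO and 6.60 the highest WT value. It held 22.6% ± 4.67 of the gene's TPM in KO (SD, n = 6; range 17.9% to 30.4%) and 5.35% ± 2.62 in WT (SD, n = 4; range 1.92% to 8.26%). Its log2 fold change was 1.64 (SE 0.50). The adjusted p was 0.274 by edgeR's quasi-likelihood fit over all transcripts (Benjamini-Hochberg) and 0.0069 by DESeq2 without a fold-change threshold, a fit that called 4.97% of all transcripts higher and 1.91% lower in KO. None of the 31-base words across the printed boundary occurs in a transcript of another gene, and 2.68% of the words of the whole transcript do.

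Klf3-202, a shorter coding transcript, went the other way. It had 0 to 2.56 TPM in KO and 1.90, 2.33, 8.30 and 15.02 TPM in WT, a log2 fold change of -3.46 (SE 1.24; edgeR quasi-likelihood test, Benjamini-Hochberg adjusted p = 0.319). By DESeq2 without a fold-change threshold its adjusted p was 0.082. The main coding transcript Klf3-201 had 5.11 to 9.83 TPM in KO and 4.72, 5.71, 6.63 and 3.53 TPM in WT, and a log2 fold change of 0.05 (SE 0.33). Kallisto splits single-end reads among transcripts that share most of their exons, so these are estimates of a division rather than counts of reads unique to each form. Of the 40 transcripts of the 10 genes in the tables, 25 were tested, 3 (Klf12-203, Klf6-201 and Klf3-203) were without overlap and higher in KO in TPM, and none was without overlap and lower, where 4.94% of all tested transcripts were higher and 0.13% lower. In CPM, 1 of the 25, Klf12-203, was without overlap and higher, as were 3.03% of all transcripts, and none was lower, as were 1.44%. Transcripts leaned to KO in general also in the fit of the estimated counts, with a median log2 fold change of 0.33.

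**Figure D4:**
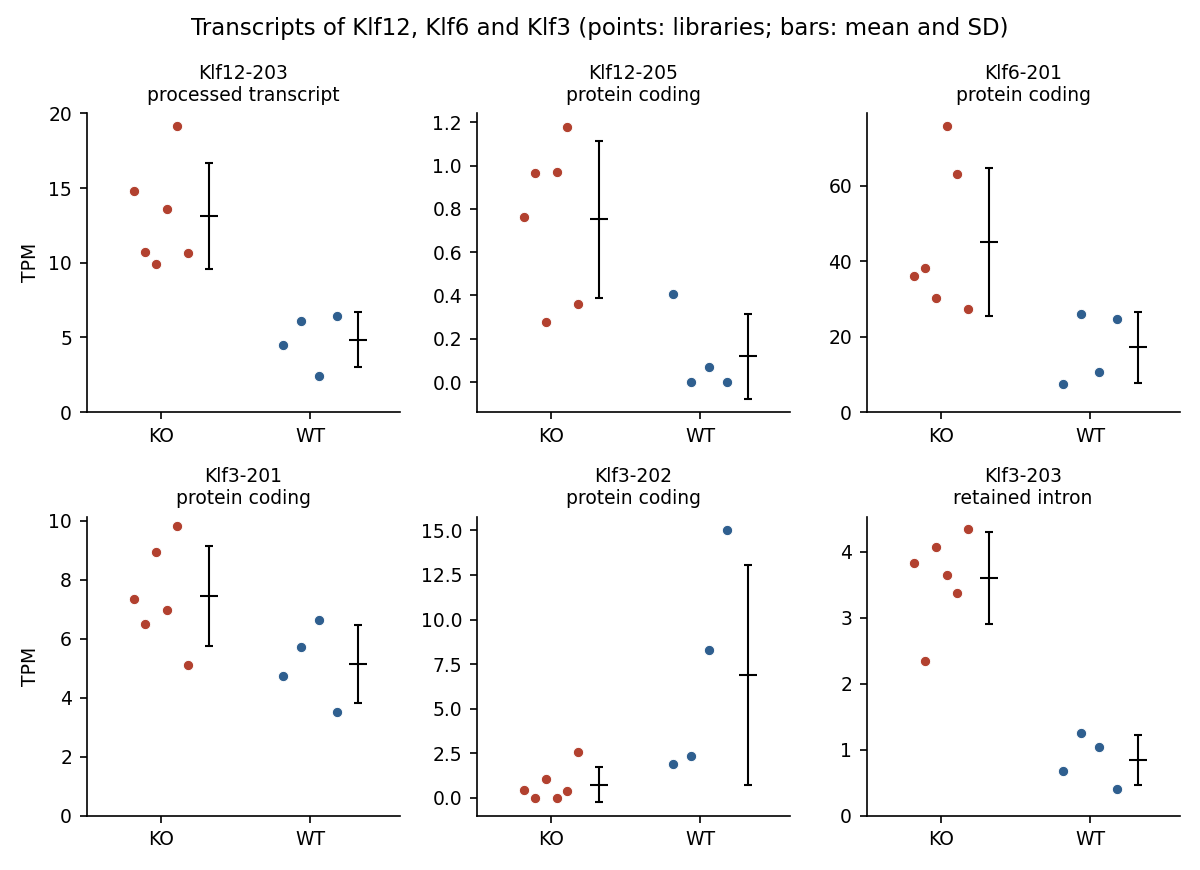
TPM of 6 transcripts of Klf12, Klf6 and Klf3 in each KO and WT library, with a vertical axis for each transcript, and the group mean and SD beside the points. Klf12-203, Klf6-201 and Klf3-203 are higher in every KO library than in any WT library, and Klf12-205, Klf3-201 and Klf3-202 overlap, on a scale that was shifted toward KO for transcripts in general.

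The group that binds SIN3 held the gene with the smallest difference. Klf13, which acts in T cells and erythroid cells, ran from 163 to 262 CPM in KO, with a median of 223, and was 192, 235, 155 and 271 CPM in WT. The WT range contained the whole KO range. Its fold change on the log2 scale was 0.03, with an interval of 2 SE from -0.37 to 0.43, the narrowest of the 10 genes.

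Klf10, the TGF-beta inducible early gene, ran from 26.5 to 85.9 CPM in KO, with a median of 51.2, and was 25.3, 64.2, 57.8 and 40.1 CPM in WT. Its log2 fold change was 0.16, with an interval of 2 SE from -0.55 to 0.87. Klf11, a close relative that also responds to TGF-beta, ran from 10.4 to 24.0 CPM in KO, with a median of 14.46, and was 13.6, 11.4, 18.8 and 9.06 CPM in WT. Its log2 fold change was 0.31, with an interval of 2 SE from -0.37 to 0.998. For both genes the groups overlapped over most of their range.

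Klf9, a target of glucocorticoid and thyroid hormone receptors, had the largest negative value, and 1 library set it. It ran from 1.74 to 8.35 CPM in KO, with a median of 2.77, and was 25.0, 4.88, 0.96 and 4.95 CPM in WT. WT replicate 15416 held 330 counts of the gene, and the other WT libraries held 55, 13 and 35. The log2 fold change was -1.26 (SE 0.76; edgeR quasi-likelihood test, Benjamini-Hochberg adjusted p = 0.398) and became 0.064 without that library. WT replicate 15416 was also the lowest of all libraries in Klf6, Klf7 and Klf10. The same held for its sums of the macrophage, endothelial, erythroblast, granulocyte and megakaryocyte markers. Its sum of stem cell markers, 322 TPM, was the highest of the WT libraries, but single genes did not follow the sum. This library was the highest of WT in Ly6a, at 207 CPM, and in Kit, at 184 CPM. It was the lowest of WT in Procr, Hlf, Mecom, Ptprc, Cd34, Meis1 and Hoxa9.

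**Figure D5:**
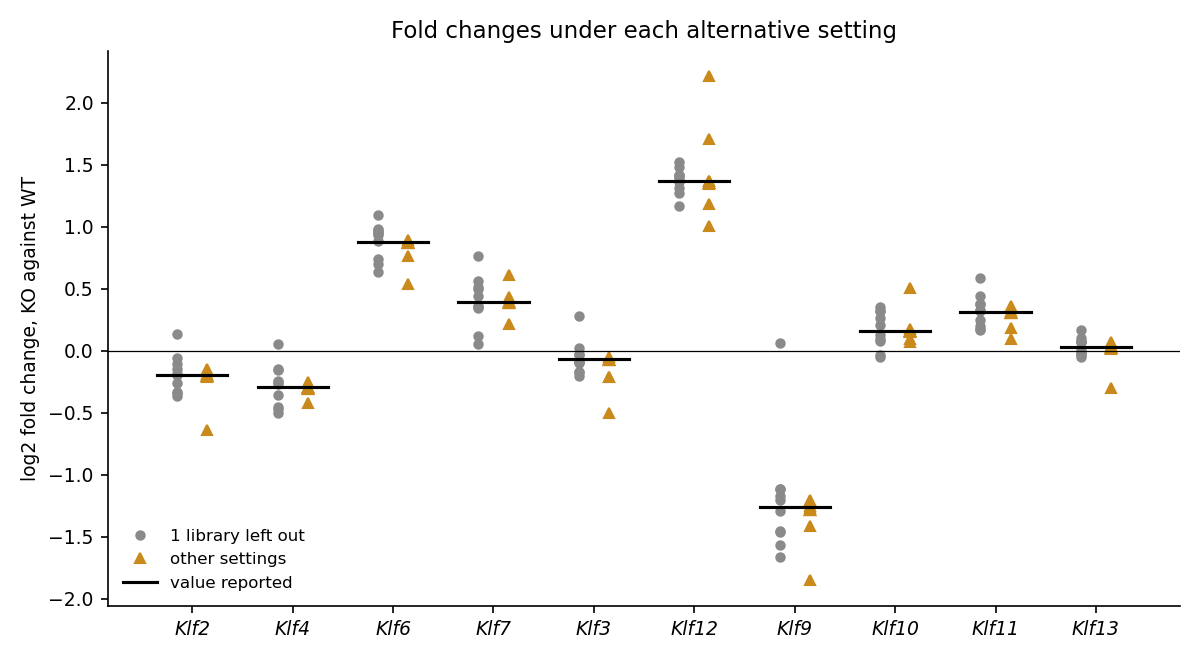
log2 fold change of the 10 KLF genes in the fit reported (line), with each of the 10 libraries left out in turn (circles) and under the other settings (triangles). Klf6, Klf7, Klf11 and Klf12 stay above 0 throughout, and Klf9 moves from -1.26 to 0.064 without WT replicate 15416.

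None of the 6 other KLF genes tested was called by edgeR, while DESeq2 with the fold-change threshold called Klf1 lower (adjusted p = 0.027) and Klf8 higher (adjusted p = 0.029) in KO, and Klf17 was not in the table. Klf1, the erythroid KLF, came closest by edgeR, with 63.6 to 211 CPM in KO and 747, 276, 777 and 62.7 CPM in WT and a log2 fold change of -1.99 (SE 0.56; edgeR quasi-likelihood test, Benjamini-Hochberg adjusted p = 0.101). Klf8, a CtBP-binding relative that KLF3 represses, had 12 to 139 counts in KO and 6, 0, 3 and 5 in WT, a log2 fold change of 2.84 (SE 0.99; same test, adjusted p = 0.158) without overlap of the groups. Klf5 (-0.72), Klf14 (2.62), Klf15 (0.78) and Klf16 (-0.23) had log2 fold changes with larger adjusted p, and Klf14 and Klf15 stood at 0 in some libraries of each group. Of the SP genes, 8 of 9 were tested and none was called by edgeR or DESeq2. Sp1 (0.28), Sp2 (0.04), Sp3 (0.24) and Sp4 (0.30) were the ones above 1 CPM, and Sp6, Sp7, Sp8 and Sp9 stayed below it in every library.

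The partners and regulators of KLF proteins were counted in 8 further lists, by edgeR unless DESeq2 is named. Over all genes edgeR called 1.32% higher and 2.67% lower, and DESeq2 with the threshold called 3.5% higher and 3.29% lower. DESeq2 without a threshold, which called 12.8% of all genes, also called Sap18, Siah1a, Tgfbr1, Smad7 and Ier2 of these lists. Of 12 corepressor genes, 1 fell, Sap30 of the SIN3 complex, from a mean of 31.4 ± 4.78 CPM in WT (SD, n = 4) to 11.97 ± 5.53 CPM in KO (SD, n = 6), with a log2 fold change of -1.39. The list's median was -0.29, and Sap18, another SIN3 subunit, had -0.60. None of the 4 coactivator genes was called, with Ep300 at 0.84 and Crebbp at 0.42, nor was any of 8 ubiquitin ligases, with Smurf1 at 0.74 and Siah1a at 0.62.

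Upstream of Klf2 and Klf4, 1 of 7 kinase and MEF2 genes rose, where 1.32% of all genes did. Mef2c, whose product binds the motif shown upstream of Klf2, went from 94.0 ± 30.4 CPM in WT (SD, n = 4) to 201 ± 21.4 CPM in KO (SD, n = 6), a log2 fold change of 1.10 (SE 0.23; edgeR quasi-likelihood test, Benjamini-Hochberg adjusted p = 0.082), while Klf2 had -0.20 and Klf4 -0.29. Mef2a had 0.57, and all 7 values of the list were positive, with a median of 0.59. None of 9 known targets of KLF2 and KLF4 was called by edgeR. Among them the cell cycle inhibitor Cdkn1a had 1.31, with a call by DESeq2 with the threshold (adjusted p = 0.063), and thrombomodulin, Thbd, -0.66.

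In the TGF-beta list, 1 of 9 genes rose, where 1.32% of all genes did. It was the signal transducer Smad3, with a log2 fold change of 0.87 from 29.95 ± 3.40 CPM in WT (SD, n = 4) to 54.9 ± 13.0 CPM in KO (SD, n = 6). The receptor Tgfbr1 had 1.03. Klf10 and Klf11, which respond to this pathway, had 0.16 and 0.31. None of 7 glucocorticoid response genes was called by edgeR, with Per1 at 1.46, called higher by DESeq2 with the threshold (adjusted p = 0.043), and Zbtb16 at -1.92. Of 15 immediate early genes, 4 rose, Fosl2 (2.78), Jun (1.62), Nr4a1 (3.24) and Fosb (2.73), where 1.32% of all genes did. DESeq2 with the threshold called 7 higher, adding Junb, Egr1 and Zfp36, where it called 3.5% of all genes higher. The list's median was 1.07 beside 0.06 over all genes. These 4 and the other genes called in these lists, Sap30, Mef2c and Smad3, lost their call when any 1 of the 6 libraries named above was left out, with a length offset and with Xist as a covariate, and kept their direction. Sap30, Smad3, Nr4a1 and Fosb also lost it without 1 or more of the other WT libraries, and Fosb with upper-quartile normalization. Klf6, Klf10, Klf2 and Klf4, which are themselves induced early in many cells, had 0.88, 0.16, -0.20 and -0.29.

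The genes most like each KLF gene were sought over the 10 libraries among 11414 others, by Pearson's r of log2 CPM after removal of each genotype's mean, as a description that shares libraries, depth and cell mixture. Klf7 had the closest companions, Mxra7 and Raph1 (both 0.99). Klf12 was followed by Mill2 (0.97) and Rpl22 (0.95), Klf6 by Nfkbiz and Zfp68 (both 0.95), Klf4 by Asb13 (0.97) and Tubb4a (0.96), and Klf2 by Arih1 and Jag1 (both 0.94). Klf3 went with Evi5 and Wdr26 (both 0.93), Klf10 with Trim35 and Tsen34 (both 0.97), Klf13 with Zfp706 (0.96) and Mysm1 (0.90), Klf9 with Islr (0.96) and Mphosph6 (0.95), and Klf11 with Tbc1d17 and Ring1 (both 0.91).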

How the data were processed

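The authors sorted LT-HSCs from E14.5 fetal livers, made SmartSeq2 libraries and sequenced them single-end. Per the labels, fastq files were made with bcl2fastq 2.20 and quantified with kallisto 0.44.0 against GRCm38, with Gencode vM16 transcripts by the study's methods. They deposited, per library, estimated counts and TPM for 133944 transcripts, and 1 table of estimated counts per gene symbol as whole numbers. For 99.3% of the values of 16620 genes that matched Gencode vM21 symbols, the gene count was the transcript sum with its fraction dropped (a difference between -0.01 and 1.01). No library pair had identical counts.

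A minimum of 11 counts over all libraries left 16725 of 17404 genes, and KO was compared with WT by edgeR 4.0.16 (R 4.3.3), with TMM normalization, the robust quasi-likelihood test and a Benjamini-Hochberg adjusted p below 0.1 over all genes. DESeq2 1.42.0 was an alternative. Transcript estimates, rounded, were fitted in the same way, a fit added after the data were seen. CPM use TMM factors, and log2 CPM a prior count of 0.5. Scripts were tested on simulated counts. Words of 31 bases were matched on both strands against Gencode vM21 transcripts. Named genes are the 10 KLF genes, all other KLF and SP genes, and in each other list the genes past the threshold plus the 2 of smallest p. The genes and lists were chosen with earlier results of these data known. Intervals of 2 SE and p-values cover the spread between libraries.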

Additional observations from a re-analysis of the deposited data

Results flagged for a closer look

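3 values stood far from the rest of their group, among 28 groups examined, where chance gives about 1 in 20. Klf9 in WT was highest in replicate 15416, with 25.0 CPM beside 0.96 to 4.95 CPM in the other 3 libraries, and this library alone gave the gene its negative fold change. Klf12 in KO was highest in replicate 15412, with 24.2 CPM beside 7.96 to 14.0 CPM, and Klf12 remained at a log2 fold change between 1.17 and 1.52 when any 1 library was left out. Klf8 in KO was highest in replicate 15411, with 6.33 CPM beside 1.14 to 2.32 CPM. The cause was not tested for any of these.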

How the results depend on the processing

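The count of 667 genes called became 1136 by DESeq2 with the fold-change threshold, 2143 by DESeq2 without one, 1 with the log2 level of Xist as a covariate, and 0 with an offset for transcript length or at an adjusted p below 0.05. With 1 library left out it ranged from 0 to 1003, and it fell to 0 or 1 without KO replicate 15405, 15406, 15411, 15412 or 15415 or WT replicate 15416. The cause was not tested. Genes with long transcripts had higher values in KO, with a median log2 fold change of -0.38 in the shortest 20% and 0.32 in the longest 20%. The count of KLF genes called was 0 in the fit reported and 1, Klf12 each time, by DESeq2 with and without the threshold, with a minimum of 11 counts in 1 library and with edgeR's own filter, and it ranged from 0 to 1 with a library left out. The KLF genes without overlap were 1 in CPM, 2 (Klf12 and Klf6) in TPM, and 1 to 2 with a library left out, Klf6 joining without WT replicate 15420.

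Fold changes that turned sign were small or rested on 1 library. With the Xist covariate Sp2 became -0.12, Sp4 -0.0078, Sp6 0.18 and Sp7 -0.99, and with the length offset Klf13 became -0.30, Sp1 -0.20 and Sp2 -0.079. With a library left out, Klf2 ranged from -0.36 to 0.14, Klf4 from -0.50 to 0.059, Klf3 from -0.21 to 0.28, Klf9 from -1.66 to 0.064, Klf10 from -0.045 to 0.35, Klf13 from -0.048 to 0.17, Klf16 from -0.38 to 0.060, Sp2 from -0.24 to 0.68, Sp7 from -0.19 to 3.97, Klf3-201 from -0.13 to 0.42 and Klf6-203 from -0.00034 to 0.42. Of the tested KLF transcripts, 3 were without overlap in TPM and 1 in CPM. The count of transcripts called, 1 in the fit reported, was 4821 by DESeq2 and ranged from 0 to 8 with a library left out. No paired analysis was possible because the labels do not tie the libraries to litters. Klf9 held 11 to 330 counts per library, and how far depth limits its precision was not tested.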
